A study of Mus musculus with 24 samples.

Results

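NRF2, the product of Nfe2l2, is a transcription factor that cells hold at a low level and release when electrophiles or oxidants accumulate. It then binds antioxidant response elements and raises the expression of genes for glutathione synthesis, conjugation of foreign and endogenous compounds, and their export. Dietary restriction of methionine (MR) limits the amino acid from which cysteine and glutathione are made, and in liver it is known for switching on the amino acid response through ATF4 as well as genes that NRF2 controls. The comparison described here asks for which genes the response to MR depended on hepatic NRF2. For each gene it is the effect of MR in NRF2 KO mice minus the effect of MR in WT mice on the log2 scale, called the interaction, so that a value of −1 means that MR raised the gene 2-fold less, or lowered it 2-fold more, in NRF2 KO than in WT livers. It was computed from 22 of the 24 liver libraries and tested for 13336 of 15160 genes listed.

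All mice were males that carried a floxed Nfe2l2 allele (NRF2fl/fl). Littermates without Cre are called WT, and mice with Cre driven by the albumin promoter (NRF2fl/(alb)) are called NRF2 KO. In NRF2 KO livers exon 5 is excised in cells that express the Cre, while cells without it keep the gene. From 8 weeks of age the mice of both genotypes ate a control diet (Con, 0.86% methionine) or the MR diet (0.17% methionine), neither with cysteine, for 8 weeks. Livers were taken after a 4 h fast at a labelled age of 5 months. In the study's description, calorimetry and a return to home cages came after these 8 weeks, so livers were taken later than their end. Each mouse gave 1 QuantSeq library, in which reads come from the 3′ end of transcripts, and each WT group had 5 mice and each NRF2 KO group 6. The libraries WT_CON_7604 and WT_MR_7612 were left out, as in the study, which treated them as outliers. Levels are given as CPM, the count of a gene scaled to a common library size with edgeR's TMM factors, and since these are whole livers, fewer cells of a type and less RNA per cell cannot be told apart.

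Depth ran from 6197291 to 22068338 counts with a median of 15019791.5. In WT, 9 hepatocyte markers together made up 88100 to 119000 CPM on Con and 77700 to 95800 on MR. In NRF2 KO they made up 113000 to 133000 CPM on Con and 98000 to 121000 on MR. Every WT MR mouse was thus below every NRF2 KO mouse, and what this means for the interactions was not tested. The Nfe2l2 level did not fall in NRF2 KO livers. It was 228 CPM at the lowest, 273 at the median and 339 at the highest in NRF2 KO Con, and 202, 228 and 249 CPM in NRF2 KO MR, against 94.0 to 107 CPM in WT MR. Counts per gene do not show whether these reads lie in the excised exon, so the level separates the genotypes without showing the deletion. The 5 WT Con mice had 106, 117, 118, 125 and 324 CPM. The library labelled WT_CON_7607 is the one at 324 CPM, inside the NRF2 KO Con range and against its label, and the calls are therefore given with it (22 libraries) and without it (21 libraries). Other values are over 22 libraries unless stated. With it the genotypes differed (exact permutation test of log2 CPM, two-sided, p = 0.019 on Con and 0.0022 on MR, the smallest that 5 against 6 mice allow). Without it the exact permutation p on Con was 0.0048, the smallest for 4 against 6. The library was doubted for this same level, so that p follows from leaving it out and adds no support. The interaction of Nfe2l2 itself was 0.34 ± 0.30 (SE) with this library and −0.10 without it.

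Few genes were called for a different response to MR in the 2 genotypes. Over 22 libraries the interaction was called for 6 genes, 0.045% of those tested, at an adjusted p under 0.05 in edgeR's quasi-likelihood test. Abcc4, Nrxn2 and Abcg2 had lower and Junb, Egr1 and Rell1 higher interactions. Scaled by library size alone, 2 genes were higher and 5 lower. Without the library labelled WT_CON_7607 the count was 12 genes, or 0.0893%, and all 6 were among them. The additional 6 were Ugt2b1, Ugt2b35, Slc35d1 and Gstp-ps, with lower interactions, and Ces1g and Zfp292, with higher ones. At an unadjusted p under 0.05 the interaction was higher for 521 genes (3.91%) and lower for 487 (3.65%), and without that library for 422 (3.14%) and 463 (3.44%). Of these 1008 genes over 22 libraries, 610 had fitted MR effects of opposite sign in the 2 genotypes, 285 had a smaller effect of the same sign in NRF2 KO, and 113 a larger one. MR itself raised 922 genes (6.91%) and lowered 921 (6.91%) in WT, and raised 831 (6.23%) and lowered 846 (6.34%) in NRF2 KO, counts that share no mice between genotypes.

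**Figure D1:**
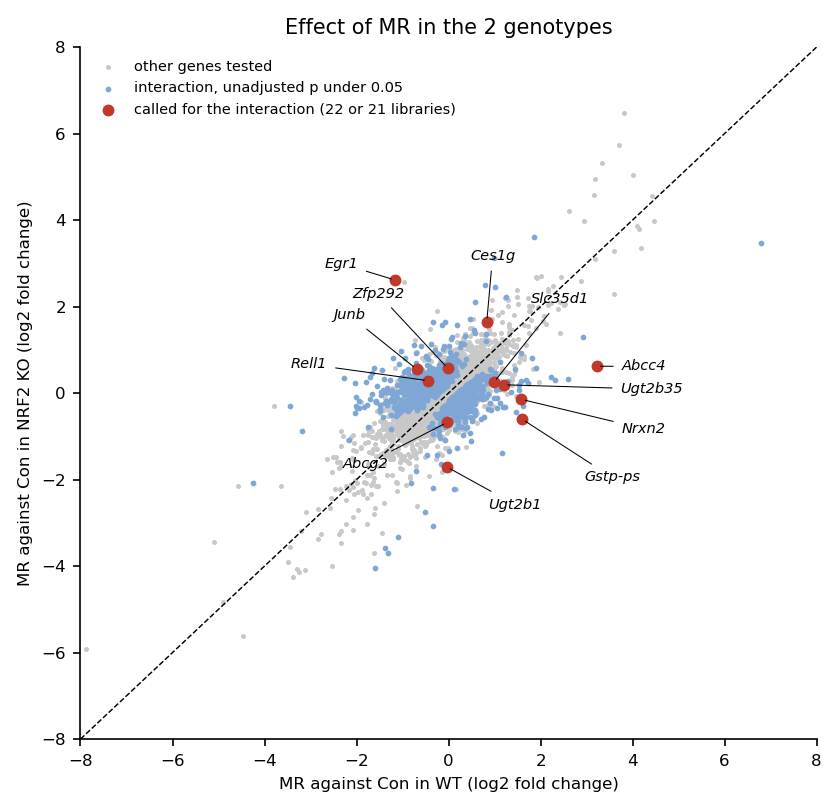
Effect of MR in WT (horizontal) and in NRF2 KO livers (vertical), both as log2 fold changes of MR against Con, for the 13336 genes tested over 22 libraries. Points on the dashed line have an interaction of 0, and red marks the 12 genes called over 22 or 21 libraries. Abcc4, Nrxn2 and Gstp-ps lie to the right of the line, Egr1 and Junb above it.

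Abcc4 encodes MRP4, a membrane pump that exports glutathione and glucuronide conjugates, bile acids and cyclic nucleotides from hepatocytes into blood. It lies on chromosome 14 at 118482692 to 118706219 of GRCm38 on the minus strand. In WT livers it was at 2.05, 2.14, 2.56, 3.03 and 3.11 CPM on Con and at 16.7, 18.4, 18.5, 33.3 and 35.0 CPM on MR. In NRF2 KO livers it was at 2.13, 2.70 and 3.05 CPM (lowest, median, highest of 6) on Con and at 2.13, 3.93 and 7.07 CPM on MR. Thus WT MR mice stood apart from all others, while NRF2 KO MR mice overlapped both Con groups. MR raised Abcc4 9.29-fold in WT (log2 3.22 ± 0.26), and in NRF2 KO the fitted change of 1.54-fold (0.62 ± 0.25) did not pass the threshold (adjusted p = 0.10). The interaction was −2.60 ± 0.35 (95% interval −3.33 to −1.86, edgeR adjusted p = 0.0020), the smallest p of all genes, and −2.66 ± 0.38 without the library labelled WT_CON_7607. The call held without each of the 22 libraries in turn. Over all 24 libraries it did not hold (−2.78, adjusted p = 0.18), nor with quality weights on them, where WT_CON_7604 and WT_MR_7612 had 7.34 and 93.5 CPM, both above the other mice of their groups.

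The antioxidant response element has the core TGACNNNGC, and its letters were searched on both strands in the 250 bases before each start site in RefSeq's promoter table (GRCm38.p6). They occur in 10.2% of the 32851 promoters. Of the 12 called genes 9 have an entry, and the core lies before a start of Abcc4, Slc35d1, Rell1 and Zfp292. The 30 bases around each match are shown because they are the places where NRF2's known motif meets genes of this comparison, on the strand of transcription and with the core in capitals:
Abcc4, farther start, chr14:118706226-118706255: agccccgagagGCGGGGTCAgggcgggccg
Abcc4, inner start, chr14:118676936-118676965: aaataatctcgTGACTCTGCcgtggtggat
Slc35d1, chr4:103215259-103215288: cggcccttcccTGACCCCGCgaggcaccat
Rell1, chr5:63968944-63968973: tggactcggggGCGGGGTCAtgcgtgcgga
Zfp292, chr4:34882971-34883000: caccgggcacgTGACCCCGCcgaacgtggc
Abcc4 holds a match before each of its 2 listed starts, 25 and 23 bases upstream. In the Slc35d1, Zfp292 and inner Abcc4 windows the core reads along the gene, and in the Rell1 and farther Abcc4 windows it reads against it. Rell1 and Zfp292 had higher interactions, and Abcc4 and Slc35d1 lower ones. No match was found for Junb, Abcg2, Ces1g, Ugt2b1 and Ugt2b35, which says only that these letters are not in the window. The 3 without an entry are Nrxn2, Egr1 and Gstp-ps.

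Abcg2, the other transporter called, encodes BCRP, which exports sulfate and glucuronide conjugates at the canalicular membrane (chromosome 6, 58584523 to 58695676, plus strand). Its levels were 59.2, 69.6, 74.0, 74.9 and 81.2 CPM in WT Con and 63.7, 64.5, 69.1, 73.4 and 81.6 CPM in WT MR. NRF2 KO Con mice ranged from 55.0 to 67.6 CPM with a median of 62.2, and NRF2 KO MR mice from 35.2 to 43.5 CPM with a median of 38.6. Every NRF2 KO MR mouse was below every mouse of the other 3 groups. MR lowered Abcg2 to 0.626-fold in NRF2 KO (log2 −0.68 ± 0.08), whereas the fitted change in WT was −0.03 ± 0.09. The interaction was −0.65 ± 0.12 (edgeR adjusted p = 0.023) and −0.59 ± 0.11 without the library labelled WT_CON_7607 (adjusted p = 0.035). The call held without 15 of the 22 libraries left out in turn and missed the threshold without WT_CON_7603, WT_MR_7611, WT_MR_7616, KO_CON_7617, KO_CON_7618, KO_MR_7625 or KO_MR_7628, with an adjusted p of at most 0.071. Abcg2 therefore differed from Abcc4 in where the difference lay, since Abcc4 moved in WT on MR and Abcg2 in NRF2 KO on MR.

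Nrxn2 encodes neurexin 2, a cell adhesion protein best known from synapses (chromosome 19, 6418731 to 6544169, plus strand). WT Con mice had 4.79, 5.12, 5.74, 5.92 and 6.72 CPM and WT MR mice 9.84, 13.7, 16.5, 16.7 and 28 CPM. NRF2 KO mice had 5.33, 5.90 and 7.04 CPM on Con and 4.14, 5.79 and 6.15 CPM on MR. As for Abcc4, the WT MR mice were above all others. MR raised it 3.0-fold in WT (log2 1.58 ± 0.19) and the fitted change in NRF2 KO was −0.15 ± 0.18, an interaction of −1.73 ± 0.26 (edgeR adjusted p = 0.0024, and 0.0076 without the library labelled WT_CON_7607). It was called without each of the 22 libraries in turn but not over all 24 (−2.04, adjusted p = 0.14) or with quality weights on them, where WT_MR_7612 had 55.9 CPM. The antisense gene Gm14964 overlaps Nrxn2, and MR raised it in WT as well (log2 1.30). Its mean level was 1.82 ± 0.302 CPM (SD, n = 5) in WT Con and 4.47 ± 1.47 in WT MR, against 2.3 ± 0.487 and 2.78 ± 0.692 (SD, n = 6) in NRF2 KO on Con and MR. Its interaction of −1.02 ± 0.30 was not called. The strand setting of the counting is not stated, so reads of the 2 genes may not be told apart. Slc22a12, which also overlaps Nrxn2, had means of at most 0.485 CPM in every group.

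Junb and Egr1 belong to the immediate early genes, transcription factors that respond within minutes to growth factors, feeding and stress. Junb, a subunit of AP-1 (chromosome 8, 84974484 to 84978718, minus strand), was at 37.8, 38.3, 46.6, 48.7 and 50.5 CPM in WT Con and at 18.9, 28.3, 28.5, 30.3 and 31.4 CPM in WT MR. In NRF2 KO it was at 22.9, 27.5 and 33.5 CPM on Con and at 30.2, 43.3 and 46.1 CPM on MR. The order of the diets was thus turned around, with WT Con and NRF2 KO MR high and the other 2 groups low. MR lowered Junb in WT (log2 −0.69 ± 0.13, adjusted p = 0.0012) and raised it in NRF2 KO (0.55 ± 0.12, adjusted p = 0.0038). The interaction of 1.24 ± 0.18 (95% interval 0.87 to 1.60, edgeR adjusted p = 0.0020), or 1.22 ± 0.18 without the library labelled WT_CON_7607 (adjusted p = 0.0057), was called under each of the 11 other settings and without each of the 22 libraries. Prdx2 overlaps Junb on the opposite strand at 124 to 133 CPM on average in the 4 groups, with an interaction of −0.01 ± 0.08.

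Egr1, a zinc finger transcription factor of the same kind (chromosome 18, 34859823 to 34864984, plus strand), had the largest interaction of the 12 called genes. WT Con mice had 10.5, 10.6, 11.3, 17.4 and 55.3 CPM and WT MR mice 5.44, 8.10, 9.56, 9.94 and 14.8 CPM. NRF2 KO mice had 6.26, 8.69 and 18 CPM on Con and 38.3, 52.6 and 101 CPM on MR. All 6 NRF2 KO MR mice were high, and among the other 16 mice only WT_CON_7602, at 55.3 CPM, reached their range. MR raised Egr1 6.11-fold in NRF2 KO (log2 2.61 ± 0.41, adjusted p = 0.00059), while the fitted change in WT of −1.16 ± 0.46 missed the threshold (adjusted p = 0.10). The interaction was 3.77 ± 0.62 (edgeR adjusted p = 0.023), 3.82 ± 0.65 without the library labelled WT_CON_7607 (adjusted p = 0.035), and 3.03 without WT_CON_7602. Over 22 libraries it missed the threshold without WT_MR_7609, WT_MR_7611, WT_MR_7616, KO_CON_7617, KO_CON_7618, KO_CON_7620 or KO_MR_7625, with an adjusted p of at most 0.071.

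Of the 26 immediate early genes listed, 21 were tested. The interaction was above 0 for 18 of them, with a median of 0.50 against 0.003 over all genes. At an unadjusted p under 0.05, 7 (33.3%) were higher and 0 lower, against 3.91% and 3.65% of all genes. Besides Junb and Egr1 these were Ier2 (0.90 ± 0.26), Klf6 (0.78 ± 0.23), Btg2 (0.87 ± 0.28), Nr4a1 (1.23 ± 0.41) and Ier3 (0.81 ± 0.29), none of which passed adjustment. Without the library labelled WT_CON_7607 the median was 0.35, with 7 members higher and Nr4a2 lower, and without WT_MR_7609 the median was 0.83. MR raised Gadd45b in both genotypes (2.44 ± 0.40 in WT, 2.67 ± 0.37 in NRF2 KO), and Jun, Klf4 and Zfp36 had intervals that include 0. The mean log2 CPM of the 21 genes ran from 2.86 to 3.16 in WT Con, 2.62 to 2.92 in WT MR, 2.34 to 2.99 in NRF2 KO Con and 2.71 to 3.11 in NRF2 KO MR, so no group stood apart from all others.

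**Figure D2:**
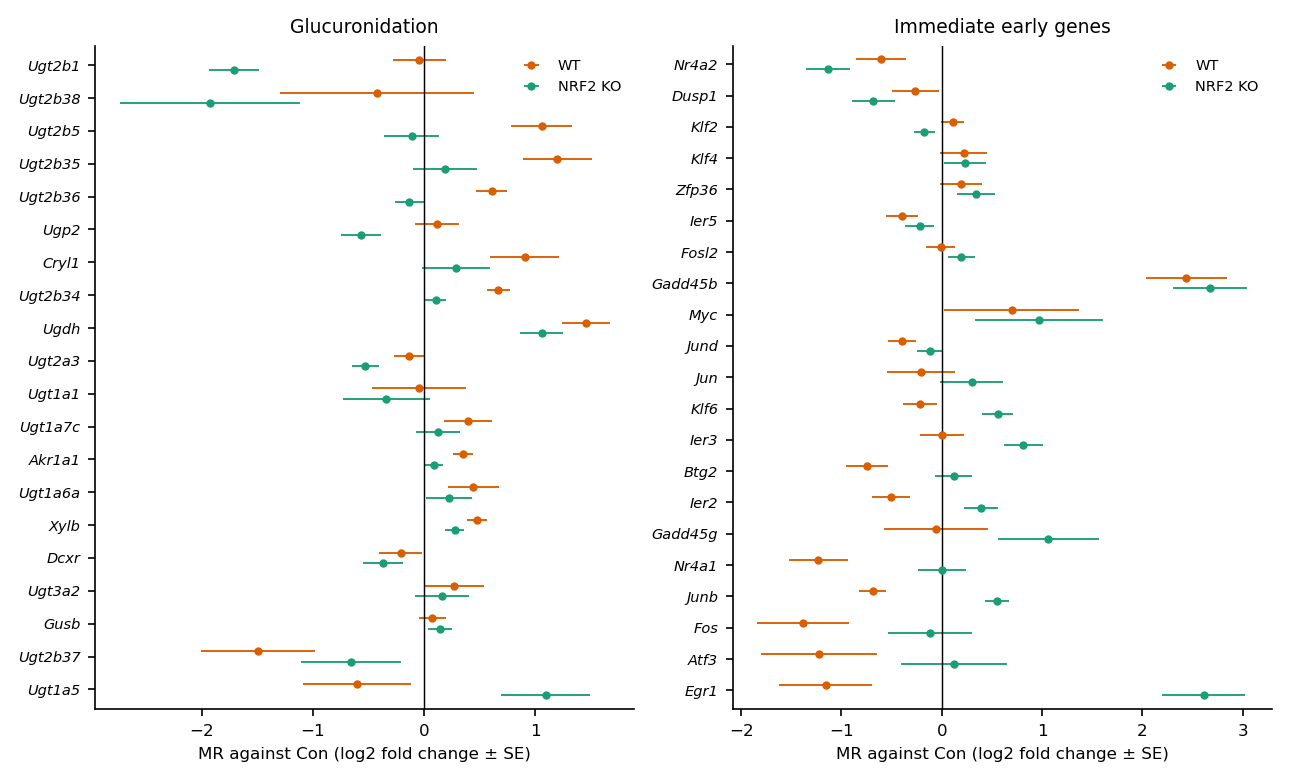
Effect of MR in WT (orange) and NRF2 KO livers (green) for the tested members of the glucuronidation list (left, 20 genes) and of the immediate early genes (right, 21 genes), as log2 fold change of MR against Con with bars of 1 SE. Genes are ordered by their interaction. Ugt2b1 is low in NRF2 KO only, several other Ugt2b genes are high in WT only, and Egr1 lies far apart in the 2 genotypes.

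Circadian clock genes also varied between mice. Their mean log2 CPM ran from 3.66 to 4.31 in WT Con, 4.05 to 4.31 in WT MR, 4.05 to 4.54 in NRF2 KO Con and 4.25 to 4.42 in NRF2 KO MR. Of 20 clock genes tested, 6 had a lower and 2 a higher interaction at an unadjusted p under 0.05, with a median of −0.15. These are 30% and 10%, against 3.65% and 3.91% of all genes. Over 21 libraries these were 4 and 2 with a median of −0.02, and without WT_CON_7605 the median was −0.26. Per1, a repressor of the clock, had −1.47 ± 0.41 and Npas2, an activator, 2.19 ± 0.83. The level of Npas2 was very low, at 0.366 CPM on average. MR raised Per1 in WT (1.54) and its fitted change in NRF2 KO was 0.06. Mean Per1 was 3.91 CPM in WT Con and 11.9 in WT MR, against 14.3 in NRF2 KO Con and 15.0 in NRF2 KO MR. On Con every NRF2 KO mouse was above every WT mouse, so WT Con was the low group. With the clock score of each mouse as a covariate 3 genes were called, Abcc4 (−2.59), Junb (1.22) and Nrxn2 (−1.61), and the adjusted p was 0.061 for Egr1 and for Abcg2 and 0.11 for Rell1. This score is the plain mean log2 CPM of the clock genes, activators and repressors together, so opposite changes can cancel in it. It also differed between groups, with medians of 3.96 in WT Con, 4.17 in WT MR, 4.435 in NRF2 KO Con and 4.38 in NRF2 KO MR. The calls kept or lost with it therefore do not speak to the hour of sampling. The labels give no such hour, and its effect was not tested.

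Rell1, a receptor of the TNF receptor family's RELT group (chromosome 5, 63908897 to 63968897, minus strand), was at 46.1, 51.2, 51.8, 53.3 and 69.1 CPM in WT Con and at 36.6, 37.9, 39.2, 41.1 and 45.3 CPM in WT MR. NRF2 KO mice had 29.6, 36.4 and 41.2 CPM on Con and 39.8, 41.8 and 49.8 CPM on MR. As for Junb, the fitted MR effects pointed in opposite directions, −0.44 ± 0.10 in WT and 0.28 ± 0.09 in NRF2 KO, both past the threshold. The interaction of 0.72 ± 0.14 (edgeR adjusted p = 0.041, 0.043 without the library labelled WT_CON_7607) was the least stable of the 6. It was called without only 7 of the 22 libraries, namely WT_CON_7605, WT_CON_7607, WT_CON_7608, WT_MR_7613, KO_CON_7622, KO_MR_7631 and KO_MR_7632, and its adjusted p reached 0.11 without another. Scaling by library size alone gave an adjusted p of 0.072.

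Of the 6 genes that the main edgeR fit called only without the library labelled WT_CON_7607, 2 belong to the glucuronidation list. Under the 11 other settings, which kept that library, Ugt2b1 was called in 7. Slc35d1, Gstp-ps and Zfp292 were called in 1, DESeq2, and Ugt2b35 and Ces1g in 0. For each of the 6 that library was the lowest WT Con mouse. Since these genes were picked by its removal, an extreme place there follows in part from the choice. That library lay near the NRF2 KO Con mice for Ugt2b35 and Ces1g, inside their range for Zfp292, and below it for Slc35d1, Gstp-ps and Ugt2b1. For Ugt2b35, a UDP-glucuronosyltransferase that joins glucuronic acid to steroids and drugs (chromosome 5, 87000860 to 87013275, plus strand), it had 18.9 CPM. The other WT Con mice had 116, 130, 131 and 137 CPM, and NRF2 KO Con mice 24.7, 28.1 and 33.4 CPM. On MR, WT mice had 218, 221, 240, 241 and 300 CPM and NRF2 KO mice 28.2, 31.9 and 40.9 CPM. On each diet every NRF2 KO mouse was thus below the other WT mice. MR raised Ugt2b35 in WT (1.20), and its fitted change in NRF2 KO was 0.19. With this library the interaction was −1.01 ± 0.42 (edgeR adjusted p = 0.59), and without it −0.74 ± 0.15 (adjusted p = 0.0498), a smaller value with a smaller error. The call over 21 libraries held without 2 of the 21 left out in turn, with an adjusted p of up to 0.17.

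Ugt2b1, a related transferase in the same cluster (chromosome 5, 86916638 to 86926530, minus strand), behaved otherwise. WT Con mice had 180, 359, 370, 386 and 608 CPM, the lowest being the library labelled WT_CON_7607, and WT MR mice 341, 346, 355, 368 and 438 CPM. NRF2 KO Con mice had 185, 283 and 391 CPM and NRF2 KO MR mice 73.4, 80.5 and 113 CPM. The range of NRF2 KO Con lies within that of WT Con only with the doubted library, and the other 4 WT Con mice are above most NRF2 KO Con mice. Every NRF2 KO MR mouse was below every other mouse. MR lowered it to 0.307-fold in NRF2 KO (log2 −1.71 ± 0.22) and the fitted change in WT was −0.04 ± 0.24. The interaction was −1.66 ± 0.32 (edgeR adjusted p = 0.064) over 22 libraries and −1.49 ± 0.27 (adjusted p = 0.035) over 21, a call that held without 6 of these 21 libraries in turn (adjusted p up to 0.12).

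Slc35d1 carries UDP-glucuronic acid into the endoplasmic reticulum, where the transferases use it (chromosome 4, 103170649 to 103215164, minus strand). Its levels in WT were 116, 156, 170, 186 and 194 CPM on Con, the lowest again from the library labelled WT_CON_7607, and 281, 296, 346, 348 and 357 CPM on MR. In NRF2 KO they were 125, 135 and 155 CPM on Con and 148, 163 and 183 CPM on MR. The WT MR mice were above all others. MR raised Slc35d1 1.98-fold in WT, and the 1.19-fold change in NRF2 KO missed the threshold (adjusted p = 0.099). The interaction was −0.73 ± 0.15 (edgeR adjusted p = 0.064) and −0.64 ± 0.12 without that library (adjusted p = 0.042). This call held without 5 of the 21 libraries in turn, with an adjusted p of up to 0.15.

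The glucuronidation list, 26 genes that make or transfer glucuronic acid, had 20 members tested. Their median interaction was −0.34, and −0.28 without the library labelled WT_CON_7607. At an unadjusted p under 0.05, 8 members (40.0%) were lower and 1 higher, against 3.65% and 3.91% of all genes, and over 21 libraries 6 and 1. The 8 were Ugt2b1, Ugt2b34 (−0.57 ± 0.14), Ugt2b36 (−0.74 ± 0.19), Ugt2b5 (−1.17 ± 0.37), Ugt2b35, Ugt2a3 (−0.39 ± 0.18), Ugp2 (−0.69 ± 0.27), which makes UDP-glucose, and Akr1a1 (−0.26 ± 0.12), which reduces glucuronate. MR raised 7 members and lowered 0 in WT, but raised 2 and lowered 3 in NRF2 KO. Ugdh, which oxidises UDP-glucose to UDP-glucuronic acid, was raised in both genotypes (1.46 ± 0.21 and 1.06 ± 0.19). Ugt1a5 was the member with a higher interaction (1.70 ± 0.63) at 3.35 CPM on average. The Ugt2b genes are near copies of each other and share part of their sequence, so reads may have been divided among them. The plot of MR effects by gene shows the WT values to the right of the NRF2 KO values for 17 of the 20 members.

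Ces1g and Gstp-ps were the other genes of detoxification. Ces1g is a carboxylesterase that also hydrolyses triglycerides (chromosome 8, 93302369 to 93337308, minus strand). It was at 31.4, 130, 132, 152 and 161 CPM in WT Con, the lowest from the library labelled WT_CON_7607, and at 185, 207, 218, 218 and 249 CPM in WT MR. NRF2 KO mice had 14.4, 21 and 26.2 CPM on Con and 46.6, 68.7 and 73.5 CPM on MR. Ces1g was lower in NRF2 KO on each diet, and MR raised it there 3.11-fold (log2 1.64 ± 0.26) from that lower level. The interaction was 0.81 ± 0.38 (edgeR adjusted p = 0.64) over 22 libraries and 1.05 ± 0.19 (adjusted p = 0.031) over 21, and it was called without 15 of the 21 in turn (adjusted p up to 0.081). In CPM the rise on MR was larger in WT, so the direction of this interaction is that of the ratio and not of the amount.

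Gstp-ps is a processed pseudogene of the glutathione transferase Gstp1 that lies within Traf5 on the same strand (chromosome 1, 192073820 to 192074450). WT mice had 0.578, 2.05, 2.09, 3.61 and 3.80 CPM on Con and 6.18, 6.99, 7.24, 8.13 and 8.47 CPM on MR. NRF2 KO mice had 0.796, 1.72 and 2.72 CPM on Con and 0.753, 1.10 and 1.45 CPM on MR. Only WT MR mice were high. The interaction was −2.19 ± 0.47 (edgeR adjusted p = 0.094), and −1.96 ± 0.38 (adjusted p = 0.040) without the library labelled WT_CON_7607, called without 5 of the remaining 21 in turn (adjusted p up to 0.12). Gstp1 had −1.91 ± 0.66 (unadjusted p = 0.0093) and Traf5 0.15 ± 0.19. Reads of the pseudogene and of Gstp1 may have been exchanged, since their sequences are nearly the same.

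Zfp292, a zinc finger protein (chromosome 4, 34803113 to 34882960, minus strand), had 41.0, 48.4, 50.4, 58.1 and 62.8 CPM in WT Con and 48.2, 48.9, 50.2, 53.6 and 57.9 CPM in WT MR. It had 36.6, 41.2 and 47.7 CPM in NRF2 KO Con and 53.2, 62.3 and 67.8 CPM in NRF2 KO MR. MR raised it in NRF2 KO (0.57 ± 0.09), with all MR mice above all Con mice, and the fitted change in WT was −0.01 ± 0.10. The interaction was 0.58 ± 0.13 (edgeR adjusted p = 0.14) and 0.65 ± 0.13 (adjusted p = 0.038) over 21 libraries, called without 6 of the 21 in turn (adjusted p up to 0.11).

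**Figure D3:**
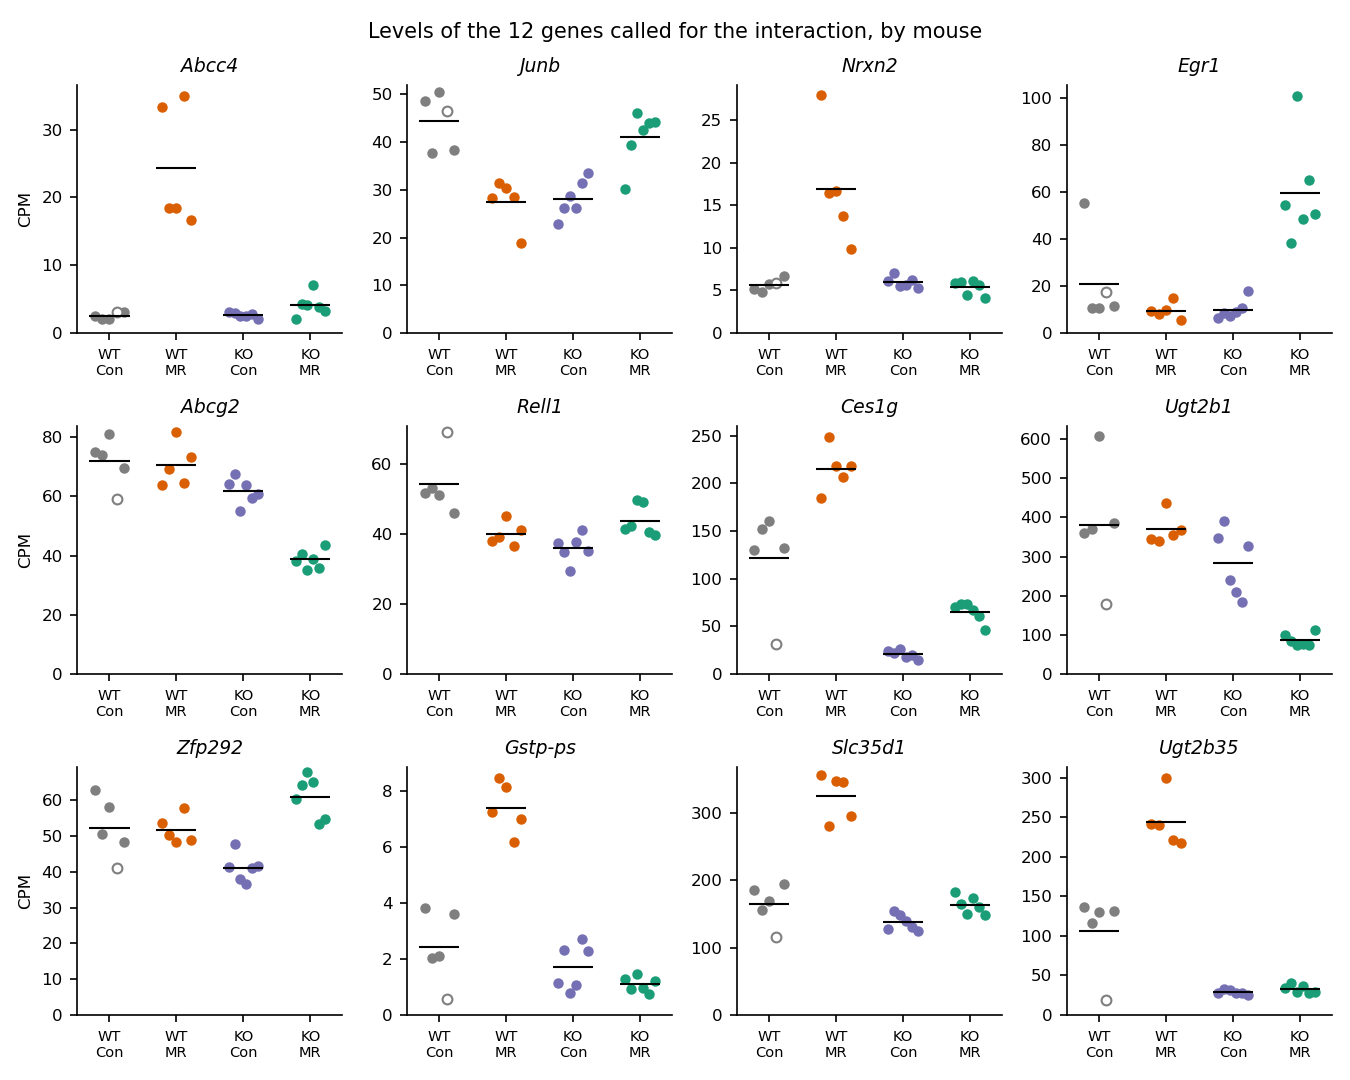
Level in CPM (vertical axis, from 0) of each of the 12 genes called for the interaction over 22 or 21 libraries, with 1 point per mouse and a line at the group mean. The open circle is the library labelled WT_CON_7607. WT MR mice stand above the other groups for Abcc4, Nrxn2, Slc35d1, Gstp-ps and Ugt2b35, and NRF2 KO MR mice stand below them for Abcg2 and Ugt2b1. The open circle is the lowest WT Con point for Ces1g, Ugt2b35, Ugt2b1, Slc35d1, Gstp-ps and Zfp292, and lies near or within NRF2 KO Con there. These genes were called only without that library, so its place follows in part from their choice.

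The 42 NRF2 targets, all tested, are genes that NRF2 is known to activate. MR raised 27 of them and lowered 0 in WT, and raised 18 and lowered 1 in NRF2 KO. The median MR effect was 0.69 in WT and 0.43 in NRF2 KO, and the median interaction −0.24, or −0.16 over 21 libraries. It was below 0 for 34 of 42. At an unadjusted p under 0.05, 12 members (28.6%) were lower and 0 higher, against 3.65% and 3.91% of all genes. Without the library labelled WT_CON_7607 these were 9 and 1. Without WT_CON_7608 the median was −0.39. Abcc4 was the only member called in edgeR, and DESeq2 over 22 libraries also called Cbr3 (−2.33, DESeq2 adjusted p = 0.020).

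By role, the carbonyl reductases Cbr3 (−2.28 ± 0.61) and Cbr1 (−1.0 ± 0.31), the transferase Gstp1 and the pump Abcc4 had the interactions farthest below 0 among members with an SE under 1. Cbr3 was at 0.626, 1.02, 1.06, 1.88 and 2.94 CPM in WT Con and at 3.64, 5.87, 8.13, 10.7 and 19.3 CPM in WT MR. All NRF2 KO mice were between 0.397 and 1.54 CPM, so that MR raised Cbr3 in WT (2.60 ± 0.39) with no overlap, and its fitted change in NRF2 KO was 0.32. MR raised Cbr1 in both genotypes, 3.50-fold in WT and 1.75-fold in NRF2 KO. Lower interactions were also found for Tkt of the pentose phosphate pathway (−0.83 ± 0.23), the ferritin heavy chain Fth1 (−0.50 ± 0.16), the heme transporter Slc48a1 (−0.40 ± 0.15), Htatip2 (−0.67 ± 0.27), the biliverdin reductase Blvrb (−0.34 ± 0.14), Txnrd1 (−0.26 ± 0.12) and Gclc, the catalytic subunit of glutathione synthesis (−0.53 ± 0.25). The cystine importer Slc7a11 had −3.31 ± 1.47, and MR raised it in both genotypes. Over 21 libraries Gclc (−0.40), Txnrd1 (−0.19) and Slc7a11 (−3.32) no longer had an unadjusted p under 0.05, and Osgin1 was higher (1.12).

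**Figure D4:**
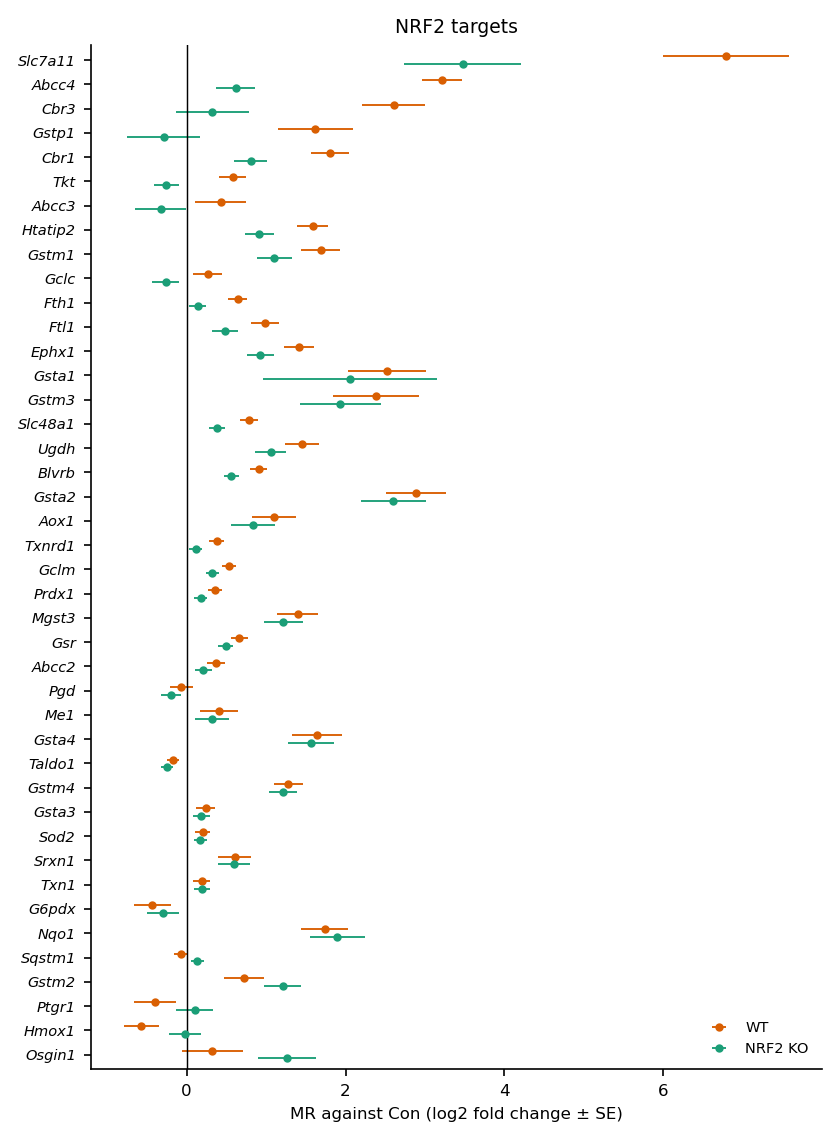
Effect of MR in WT (orange) and NRF2 KO livers (green) for the 42 NRF2 targets, as log2 fold change of MR against Con with bars of 1 SE, ordered by interaction. MR raised 27 members in WT and 18 in NRF2 KO; the 2 values lie close together for Nqo1, Gsta4 and Gstm4 and far apart for Abcc4, Cbr3 and Gstp1.

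Other classical NRF2 genes showed no difference that passed the test, with intervals of varying width. Nqo1, the quinone reductase used as a marker of NRF2 activity, rose on MR in both genotypes (log2 1.74 ± 0.30 in WT, 1.90 ± 0.34 in NRF2 KO), with an interaction of 0.16 and a 95% interval from −0.76 to 1.08. For Gsta2 the values were 2.89 and 2.60 with an interval from −1.45 to 0.88, for Ephx1 1.42 and 0.93 with an interval from −1.0 to 0.03, and for Gsr 0.66 and 0.49 with an interval from −0.46 to 0.12. Aox1 (−0.27 ± 0.39) and Mgst3 (−0.18 ± 0.36) did not pass either. Sod2 had −0.03 ± 0.12. These values compare ratios, and the levels differed. Mean Nqo1 was 4.28 CPM on Con and 14.5 on MR in WT, against 0.998 and 3.74 in NRF2 KO. Gsta2 had 16.8 and 126 CPM against 2.79 and 16.9, and Ephx1 204.5 and 546 against 85.3 and 162.2. The rise in CPM was thus smaller in NRF2 KO. On MR every NRF2 KO mouse was below every WT mouse for Nqo1, Gsta2, Ephx1 and Aox1, while Gsr, Mgst3 and Sod2 overlapped.

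The amino acid response was described by the 38 ATF4 targets, all tested. MR raised 24 of them in each genotype, with a median effect of 0.83 in WT and 0.54 in NRF2 KO. The median of their interactions was −0.005, which changed sign under 5 of 11 other settings. At an unadjusted p under 0.05, 2 were higher (Gdf15 and Slc7a1) and 2 lower (Slc7a11 and Stbd1, −0.45 ± 0.16), and over 21 libraries 1 and 1. Each 2 of 38 is 5.26%, near the 3.91% higher and 3.65% lower over all genes. Asns, which makes asparagine, rose by 4.09 ± 0.24 in WT and 3.86 ± 0.22 in NRF2 KO on the log2 scale, an interaction of −0.23 with an interval from −0.87 to 0.41. Psat1 of serine synthesis had −0.32 (−0.99 to 0.35), Trib3 0.38 (−0.14 to 0.89), Atf4 itself 0.07 (−0.20 to 0.35) and Xbp1 −0.05 (−0.38 to 0.28). Fgf21, the hormone that rises in liver when protein or methionine is scarce, rose in both (2.43 and 2.11), but its interaction was known only to between −2.01 and 1.37. The intervals of Vldlr (0.04, −1.12 to 1.20) and Cyp4a14 (−0.11, −1.61 to 1.40) were wide too. Gdf15, a stress hormone among the ATF4 targets, had a higher interaction (1.28 ± 0.39, unadjusted p = 0.0038), being lowered by MR in WT (−1.24) with a fitted change of 0.04 in NRF2 KO.

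Among the genes that MR changed at least 2-fold in both genotypes, the interaction was bounded most tightly for Psph, the last enzyme of serine synthesis (−0.02 ± 0.21), the NRF2 target Pir (0.10 ± 0.24), Miga1 (0.06 ± 0.24), Insig2, a brake on sterol synthesis (0.42 ± 0.25), and the transferase Gstm4 (−0.07 ± 0.25). Over all 13336 genes the median SE of the interaction was 0.195. The 95% interval lay within ±1 on the log2 scale for 76.9% of genes and within ±0.5 for 41.6%. MR was called in both genotypes for 786 genes, and for 79.4% of these the interval lay within ±1. Of the 159 changed at least 2-fold in both, 6 had an unadjusted p under 0.05, but the interval lay within ±1 for only 31. A missing call therefore does not show equal responses.

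The cytosolic ribosomal proteins had small interactions of 1 direction. All 82 were tested and all 82 were below 0, from −0.46 to −0.01 with a median of −0.22. At an unadjusted p under 0.05, 21 (25.6%) were lower, against 3.65% of all genes. None was called. MR raised 71 of them in WT and 43 in NRF2 KO, with median effects of 0.51 and 0.29. Rps19 had −0.32 ± 0.11 and Rpsa −0.32 ± 0.11. Without the library labelled WT_CON_7607 11 were lower at this p, with a median of −0.21, and scaling by library size, which moved the median of all genes to 0.07, gave −0.17. These genes share their control to a large degree, so 82 values below 0 are not 82 separate observations.

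**Figure D5:**
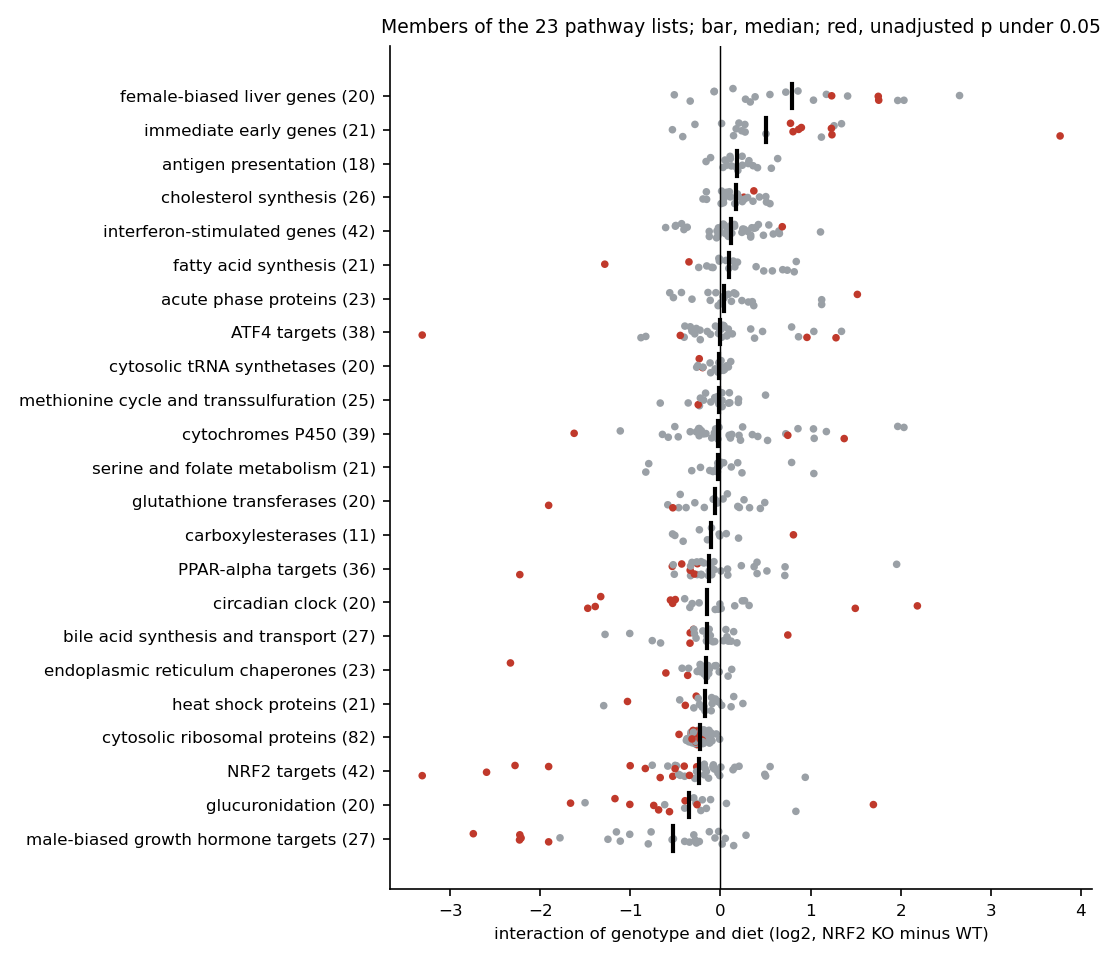
Interaction (horizontal axis, log2, NRF2 KO minus WT) of each tested member of the 23 pathway lists, with the number tested in brackets, the median as a black bar and members with an unadjusted p under 0.05 in red. Ribosomal proteins form a narrow cluster below 0, and the sex-biased lists spread widest.

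The remaining lists had medians nearer to 0 or members with large errors. At an unadjusted p under 0.05, 3.91% of all genes were higher and 3.65% lower (3.14% and 3.44% over 21 libraries). A single member of 27 or of 42 is thus near or below that share. Male-biased targets of growth hormone had a median of −0.52 with 5 of 27 lower, among them Mup20 (−2.74 ± 1.21), and without the library labelled WT_CON_7607 1 of them was lower. Their median ran from −1.48 without KO_MR_7632 to −0.04 without WT_MR_7613. Female-biased genes had a median of 0.79 with 3 of 20 higher, Atp6v0d2 (1.23 ± 0.37), Prom1 (1.76 ± 0.59) and Slc22a26, and their median was 0.32 without KO_MR_7629. Heat shock proteins (−0.17, 3 of 21 lower, among them Hspa8 at −0.39 ± 0.13), chaperones of the endoplasmic reticulum (−0.16, 3 of 23 lower, among them Herpud1 at −0.61 ± 0.21 and Derl3 at −2.33 ± 0.88), PPAR-alpha targets (−0.13, 6 of 36 lower, among them Hadhb at −0.34 ± 0.12) and genes of bile acid synthesis and transport (−0.15, 3 of 27 lower and 1 higher) were below 0. Over 21 libraries 7 heat shock proteins were lower, and 1 bile acid gene was lower and 1 higher. Cholesterol synthesis was above 0 in 23 of 26 genes, with a median of 0.17 and 2 higher, Sc5d (0.37 ± 0.17) and Ebp (0.26 ± 0.13). Over 21 libraries its median was 0.10 with 1 higher, and the median ran from 0.02 without KO_CON_7620 to 0.27 without WT_CON_7605. Interferon-stimulated genes (median 0.11, 1 of 42 higher) and antigen presentation (0.18, 0 of 18) were lowered by MR in both genotypes for 19 and 4 members in WT and 16 and 3 in NRF2 KO.

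Carboxylesterases (median −0.10), cytochromes P450 (−0.03), glutathione transferases (−0.06), serine and folate metabolism (−0.03), the methionine cycle and transsulfuration (−0.02), tRNA synthetases (−0.02), fatty acid synthesis (0.09) and acute phase proteins (0.04) had medians within 0.10 of 0. Single members of these lists had larger values. Cyp2a5, a P450 enzyme that oxidises coumarin and nicotine, was raised by MR by 2.92 ± 0.36 in WT and 1.29 ± 0.31 in NRF2 KO, an interaction of −1.62 ± 0.45 (unadjusted p = 0.0020). Cyp2c55 had 1.37 ± 0.42 and Socs3, an inhibitor of cytokine signalling among the acute phase genes, 1.52 ± 0.58. Slc25a1, the citrate carrier, had −0.35 ± 0.10. Mgst1, Chdh and Dars had interactions of −0.53 ± 0.22, −0.25 ± 0.11 and −0.24 ± 0.10.

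Some genes came close to the call. Aacs, which activates acetoacetate for lipid synthesis (chromosome 5, 125475814 to 125517410, plus strand), had 17.2, 25, 26, 26 and 26 CPM in WT Con and 15.8 to 36.4 CPM in WT MR. It had 42.6, 58.1 and 68.8 CPM in NRF2 KO Con and 22.1, 27.8 and 38.3 CPM in NRF2 KO MR. NRF2 KO Con mice were above all others, and the interaction was −1.28 ± 0.27 (edgeR adjusted p = 0.094). Fmn1, which nucleates actin filaments (1.08 ± 0.22), Ccdc66 (1.07 ± 0.25) and Gm44639, a locus without an assigned function (1.73 ± 0.38), were higher, and Btbd2 (−0.74 ± 0.15) was lower. Their adjusted p lay between 0.064 and 0.16, and over 21 libraries between 0.11 and 0.25. MR lowered Fmn1 in WT (−0.94 ± 0.17), and its fitted change in NRF2 KO was 0.14.

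Markers of other liver cells moved with diet and genotype too, and their part in the results above was not tested. For the counts below, 3.91% of all genes were higher and 3.65% lower at an unadjusted p under 0.05. Kupffer cell and macrophage markers summed to 577 to 782 CPM in WT Con, 455 to 521 in WT MR, 495 to 733 in NRF2 KO Con and 428 to 575 in NRF2 KO MR. All 12 had an interaction above 0 with a median of 0.16, and none had an unadjusted p under 0.05. Stellate cell markers summed to 499 to 795, 424 to 532, 581 to 665 and 476 to 603 CPM in the same order, with 11 of 12 above 0 and a median of 0.30. Bile duct markers summed to 49.8 to 77.3 CPM in WT Con, 21.4 to 29 in WT MR, 32.5 to 54 in NRF2 KO Con and 20.9 to 29.6 in NRF2 KO MR. All 6 tested were above 0, with Spp1 (0.81 ± 0.32), Epcam (1.39 ± 0.56) and Krt7 (0.99 ± 0.46) at an unadjusted p under 0.05, and their median of 0.90 was 0.45 without WT_CON_7608. Neutrophil markers, of which S100a8 (1.08 ± 0.38) and S100a9 (0.96 ± 0.38) were higher, summed to 4.68 to 14.5 CPM in all groups, and the defining markers Ngp, Camp, Ltf, Mpo and Elane are not among the listed genes. T and NK cell (1 of 8 higher, Klrb1c), adipocyte (1 of 4, Fabp4), endothelial, B cell, red blood cell and pancreatic acinar markers had no other member past this p. Hepatocyte markers had a median of −0.02, with Apoa1 higher (0.31 ± 0.13).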

How the data were processed

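Liver RNA of 24 male mice was measured in 1 QuantSeq 3′ library per mouse. The authors made the counts with Lexogen's QuantSeq FWD pipeline on Bluebee and deposited raw counts per gene. The aligner is not given in the sources used here. The build given by the submitters is GRCm38, and their processing notes name R 3.4.3 and DESeq2 1.18.1. The authors also deposited normalized signal values, which were found to be those counts after division by DESeq2 size factors, and these served in 1 alternative only.

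Counts of 22 libraries were fitted in R 4.3.3 with edgeR 4.0.16 in a single model of 4 group means (TMM, edgeR's filter by expression, robust quasi-likelihood F-test), and the filter left out 1824 genes. A gene was called where its p, adjusted after Benjamini and Hochberg over all genes tested, was under 0.05, and the fit was repeated on 21 libraries without the library labelled WT_CON_7607, with 13441 genes tested. Errors are the SD between mice or an SE, taken as the absolute log2 value divided by the square root of its quasi-likelihood F. Both include counting error. The 95% intervals are the value plus and minus a t quantile times this SE, so they are approximate, above all for genes with few counts. No 2 libraries of a group were alike enough to be 1 sample. The labels give no batch.

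The comparison, the gene lists and the rules for named genes were chosen with earlier results of these data known. Named are genes called over 22 or 21 libraries, the 8 smallest unadjusted p in each direction among genes of at least 1 CPM on average, the genes the study measured by qPCR, up to 2 members of each list with the smallest p, and the 5 genes changed at least 2-fold by MR in both genotypes with the smallest SE of the interaction. Further members of the NRF2, glucuronidation, immediate early, female-biased and bile duct lists with an unadjusted p under 0.05, those named to show the range of a list, and the overlapping genes were added after their values were seen. Some genes that the rule names are not reported here. Lists are given as counts and medians, with no test of a list.

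Alternatives were DESeq2 size factors, library size alone, no filter, a mean of at least 1 CPM, DESeq2 1.42.0, limma 3.58.1 (voom, and trend on log2 of the deposited normalized values plus 1), no robust dispersion, all 24 libraries without and with quality weights, a clock score as covariate, and each library left out in turn. The fit was tested on simulated data. Positions are from GENCODE M21 and promoters from RefSeq. Plots used matplotlib 3.10.9 (Python 3.11.15).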

Additional observations from a re-analysis of the deposited data

Results flagged for a closer look

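The effect of MR differed between WT and NRF2 KO livers, by the test of the interaction itself, for the 12 genes described above. Over 22 libraries these were Abcc4 (−2.60), Nrxn2 (−1.73), Abcg2 (−0.65), Junb (1.24), Egr1 (3.77) and Rell1 (0.72). Without the library labelled WT_CON_7607 they were joined by Ugt2b1 (−1.49), Gstp-ps (−1.96), Ugt2b35 (−0.74), Slc35d1 (−0.64), Ces1g (1.05) and Zfp292 (0.65).

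In 16 of 152 groups of mice, over 38 named genes, 1 mouse lay far from the others of its group by Dixon's test at the 95% level, which chance gives in about 1 in 20. The library labelled WT_CON_7607 was apart in 4 of them, with 324 CPM of Nfe2l2, 256 of Gclc, 31.4 of Ces1g and 18.9 of Ugt2b35. Ces1g and Ugt2b35 were among the 38 because edgeR called them only without that library, and its Nfe2l2 level was what raised the doubt. Its place for these genes thus follows in part from how they were chosen, and the rate of 1 in 20 does not apply to them. Among the called genes, WT_CON_7602 had 55.3 CPM of Egr1, WT_MR_7616 had 18.9 CPM of Junb, and WT_MR_7613 had 438 CPM of Ugt2b1 and 300 CPM of Ugt2b35. WT_CON_7602 and WT_MR_7613 were also low for Aacs, at 17.2 and 15.8 CPM. WT_CON_7605 had 196 CPM of Xbp1 and 2.35 CPM of Gm44639. WT_MR_7609 was high for Atf4 (318 CPM) and Fgf21 (68.5 CPM). In NRF2 KO, KO_CON_7620 was low for Asns (1.38 CPM) and KO_MR_7632 for Txnrd1 (46 CPM). Why these mice lay apart was not tested.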

How the results depend on the processing

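No paired analysis was possible because the groups share no replicate numbers. The 6 genes called over 22 libraries became 35 with DESeq2 (12 higher, 23 lower) and 3 with the clock score as covariate. The 12 called over 21 libraries became 34 with DESeq2, 7 without robust dispersion, 4 with the clock score, and 6 with WT_CON_7604 and WT_MR_7612 put back (23 libraries). The other settings gave counts within 1.5 times. Leaving out each library gave 3 to 12 calls over 22 libraries, with 3 without WT_MR_7611, WT_MR_7616, KO_CON_7617, KO_CON_7618 or KO_MR_7625 and 12 without WT_CON_7607. It gave 3 to 15 over 21, with 3 without WT_MR_7616, KO_MR_7628 or KO_MR_7629 and 15 without WT_CON_7608. The cause was not tested.

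No called interaction changed sign. Uncalled ones near 0 did, under library size scaling for Xbp1 (0.0036), Sod2 (0.024), Psph (0.034) and Gstm4 (0.017), with the clock score for Xbp1 (0.011) and Vldlr (−0.050), with voom for Cyp4a14 (0.0087) and Psph (0.021), and with limma-trend for Nqo1 (−0.095), Cyp4a14 (0.031) and Psph (0.0092). Over all 24 libraries they were Xbp1 (0.079), Gsta2 (0.086), Mgst3 (0.012), Fgf21 (0.32), Psat1 (0.14) and Vldlr (−0.19), and with quality weights Nqo1 (−0.0097), Asns (0.019), Cyp4a14 (0.40), Fgf21 (0.14), Psat1 (0.10) and Psph (0.092). With each library left out, values ran from −0.37 to 0.29 for Cyp4a14, −0.74 to 0.21 for Fgf21, −0.27 to 0.052 for Gstm4, −0.037 to 0.17 for Miga1, −0.099 to 0.46 for Nfe2l2, −0.12 to 0.35 for Nqo1, −0.066 to 0.23 for Pir, −0.13 to 0.070 for Psph, −0.088 to 0.019 for Sod2, −0.19 to 0.30 for Vldlr and −0.16 to 0.027 for Xbp1. Depth of at least 6197291 counts and 5 or 6 mice a group left a median SE of 0.195. With a library left out, the medians of the PPAR-alpha (−0.20 without KO_CON_7618), interferon (0.050 without WT_MR_7609, 0.24 without WT_MR_7611), antigen presentation (0.090 without WT_CON_7605) and stellate cell lists (0.19 without WT_CON_7608) also moved by over 1.5 times, and several of those within 0.10 of 0 changed sign.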

Other observations

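DESeq2 called genes of other roles that edgeR did not. Noct, a clock-controlled phosphatase of NADPH, had an interaction of −1.94 (DESeq2 adjusted p = 0.0011), Tsc22d3, a target of glucocorticoids, −1.33 (adjusted p = 0.014), the iron exporter Slc40a1 −0.65 (adjusted p = 0.046) and the gluconeogenic enzyme Fbp1 −0.76 (adjusted p = 0.042). Noct, Tsc22d3, Slc40a1 and Fbp1 were chosen after their values were seen. Among the genes described above that edgeR did not call, DESeq2 over 22 libraries also called Cbr3, Ugt2b34, Per1, Aacs, Slc25a1, Fmn1, Ccdc66, Gm44639 and Btbd2.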
